A study of Mus musculus with 34 samples.

Results

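Mice that gained little weight on a high-fat diet (HFD) were compared with mice kept on chow diet (CD) for the same 16 weeks. The comparison took the libraries labelled as low weight gainers (3) and those labelled as 16-week CD (6), which are 9 of the 34 libraries of the series, and used every gene in the table. All were cumulus cell (CC) libraries of C57BL/6J females, put on their diet at 8 weeks of age and superovulated before collection. Per the labels, 11% of the energy of CD and 58% of the energy of HFD came from fat. About 50 cells of a mouse were taken for each library, which the labels trace to a single cumulus-oocyte complex, and mRNA was captured by oligo-dT in the Smart-seq2 method. How much weight made a mouse a low weight gainer is not given in the sources used here, and neither are the weights. The other 16-week HFD mice (7 libraries) served as a second reference. The p-values measure the spread between libraries of different mice.

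CCs are granulosa-derived cells that enclose the oocyte before ovulation. They pass metabolites to the oocyte through gap junctions, and after the surge of luteinizing hormone (LH) they respond to EGF-like ligands and prostaglandins and lay down a hyaluronan matrix in which the complex expands. In diet-induced obesity the ovary is known to be exposed to more lipid, insulin and leptin.

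The total counts ranged from 2257473 to 5729017 in CD and from 3950156 to 6744712 in the low weight gainers. Granulosa markers ranged widely, from the gap junction gene Gja1 at 2326 to 21270 CPM (counts relative to the library total after TMM scaling) over the 9 libraries to Amh, which had no read in the low weight gainers and in 3 CD libraries. The inhibin subunit Inha stood at 764, 773 and 756 CPM in the low weight gainers and at 455 to 1063 CPM in CD. Of 17 oocyte markers, 7 had no read in any library, and the theca enzyme Cyp17a1 had none either. The libraries CD 1 and CD 2 stood apart from the rest. Their correlation with the other 4 CD libraries was 0.741 to 0.84, against 0.984 with each other, whereas the low weight gainers correlated at 0.88 to 0.952 with those 4. On the first principal component (50.5% of the variance) CD 1 and CD 2 scored 100.1 and 92.9, and the other 7 libraries between -58.5 and -9.58. Leaving them out together is given beside many of the results that it moved, but not beside every value.

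Phactr2 was the gene that rose in the low weight gainers, and it was the only gene called among 11620 tested, which is 0.00861% (edgeR quasi-likelihood test, Benjamini-Hochberg adjusted p under 0.05). It encodes a phosphatase and actin regulator. Its level was 316, 624 and 347 CPM in the low weight gainers, and in CD the lowest, median and highest were 31.3, 54.5 and 81.2 CPM. Every low weight gainer lay far above every CD library. The log2 fold change was 2.97 (SE 0.36), with an edgeR adjusted p of 0.0367. Without CD 1 and CD 2 it was 3.30, with an edgeR adjusted p of 0.00416. When 1 library at a time was left out, the log2 fold change stayed between 2.67 and 3.19, while the adjusted p ran from 0.0353 to 0.21 and passed only without CD 2. The Phactr2 entry covers chr10:13207717-13474396 (GRCm38, minus strand), nearly the whole gene in GENCODE M21. The RefSeq promoter window of Phactr2 at chr10:13324240-13324539 (GRCm38.p6, minus strand, 250 bases before to 50 after a start within the entry) is shown because this gene alone passed the test. It was searched on both strands for TGACG, the core of the cAMP response element (CRE), which stands in 20.8% of 32851 such windows, and these letters are not in it.
Phactr2: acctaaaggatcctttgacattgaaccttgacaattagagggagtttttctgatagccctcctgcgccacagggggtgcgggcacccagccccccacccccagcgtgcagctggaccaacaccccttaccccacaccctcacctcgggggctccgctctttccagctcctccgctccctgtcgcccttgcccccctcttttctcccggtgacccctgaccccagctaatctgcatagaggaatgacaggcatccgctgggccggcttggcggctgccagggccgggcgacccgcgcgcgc

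No other gene was called by edgeR with 3 libraries against 6, although more genes differed before adjustment. At an unadjusted p under 0.05, 476 genes were higher (4.1%) and 823 lower (7.08%) in the low weight gainers. DESeq2 called 77 higher (0.719%) and 173 lower (1.61%) of 10716 genes with an adjusted p, and limma-voom with sample quality weights called 92 higher (0.792%) and 122 lower (1.05%). Of these calls 153 were shared, 51 higher and 102 lower. The CPM of the groups did not overlap for 394 genes that were higher (3.39%) and 473 that were lower (4.07%). The median log2 fold change over all genes tested was -0.08, and it was -0.28 when only library totals were used for scaling, so the whole scale shifts down with that choice. None of the 12 leading genes changed sign with it, and the log2 fold change of Phactr2 became 2.68 (edgeR adjusted p 0.345). At an unadjusted p under 0.05, 932 genes were higher and 847 lower without CD 1 and CD 2, with a median log2 fold change of -0.0022. The balance over all genes thus turned with these libraries left out. Counts of lists in that setting are to be set beside 932 and 847, not beside 476 and 823. Fewer genes were tested there than with all libraries, so the shares of all genes higher and lower were both larger. The shares of 4.1% and 7.08% are therefore too low a background for list counts without CD 1 and CD 2. In that setting edgeR called 3 genes, all higher. These were Phactr2, Hdac4 and Gas6, the last of them named after its values were seen. Gas6 encodes a ligand of the TAM receptor kinases. It had 13.4, 13.3 and 18.3 CPM in the low weight gainers and 2.21 to 11.7 CPM in CD, where CD 1 and CD 2 were the highest. Gas6 had a log2 fold change of 1.53 with all libraries (edgeR adjusted p 0.354) and 2.54 without these (edgeR adjusted p 0.0358).

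The 11 named genes with the smallest p-values beside Phactr2 had groups that did not overlap, and all of them were called by both DESeq2 and limma-voom but not by edgeR. They were chosen by their p in these same libraries, so the lack of overlap and these calls are no separate support. Ptrf (now Cavin1), which shapes caveolae at the cell surface, stood at 734, 850.5 and 1081 CPM against 102, 149 and 399 CPM (lowest, median and highest in CD). Its log2 fold change was 2.33 (edgeR adjusted p 0.226), and CD 13 was the CD library nearest to the low weight gainers. Gas7, a growth arrest gene of the actin cytoskeleton, had 68.6, 101 and 73.2 CPM against 13.7 to 35.0 CPM, a log2 fold change of 1.73 (edgeR adjusted p 0.226). Eral1 encodes a GTPase that assembles the small subunit of the mitochondrial ribosome. It had 70.2, 79.8 and 81.4 CPM against 26.1 to 36.7 CPM, so the low weight gainers were tightly grouped above CD, with a log2 fold change of 1.36 (edgeR adjusted p 0.157). Eri3, a putative exoribonuclease, was as tightly grouped at 167.5, 178 and 171 CPM against 56.1 to 87.0 CPM, with a log2 fold change of 1.21 (edgeR adjusted p 0.226).

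Hdac4, a class IIa histone deacetylase, was counted in 2 entries of the table with different values. The entry that led the comparison covers chr1:91928785-91931176, which is 2392 bases, all exonic, at the 3′ end of the gene (0.896% of its span in GENCODE M21, minus strand). It held 140, 151 and 132 CPM in the low weight gainers and 35.1, 47.5 and 57.2 CPM as the lowest, median and highest in CD. Its log2 fold change was 1.55 (SE 0.23, edgeR adjusted p 0.109), and 1.63 without CD 1 and CD 2 (edgeR adjusted p 0.0486). The other entry covers chr1:91932757-92148393, most of the gene. It held 53.9, 45.2 and 39.2 CPM against 23.9, 29.9 and 102 CPM, which overlap, with a log2 fold change of 0.17 (SE 0.45, edgeR adjusted p 0.923). The low weight gainers lay above every CD library in the 3′ entry. In the longer entry the overlap rested on CD 9 alone, since the other 5 CD libraries had 23.9 to 33.9 CPM. Without CD 9 the log2 fold change of Hdac4.dup1, the longer entry, was 0.75 (edgeR adjusted p 0.231), and without CD 1 and CD 2 it was -0.058. The difference between the entries was not tested.

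**Figure D1:**
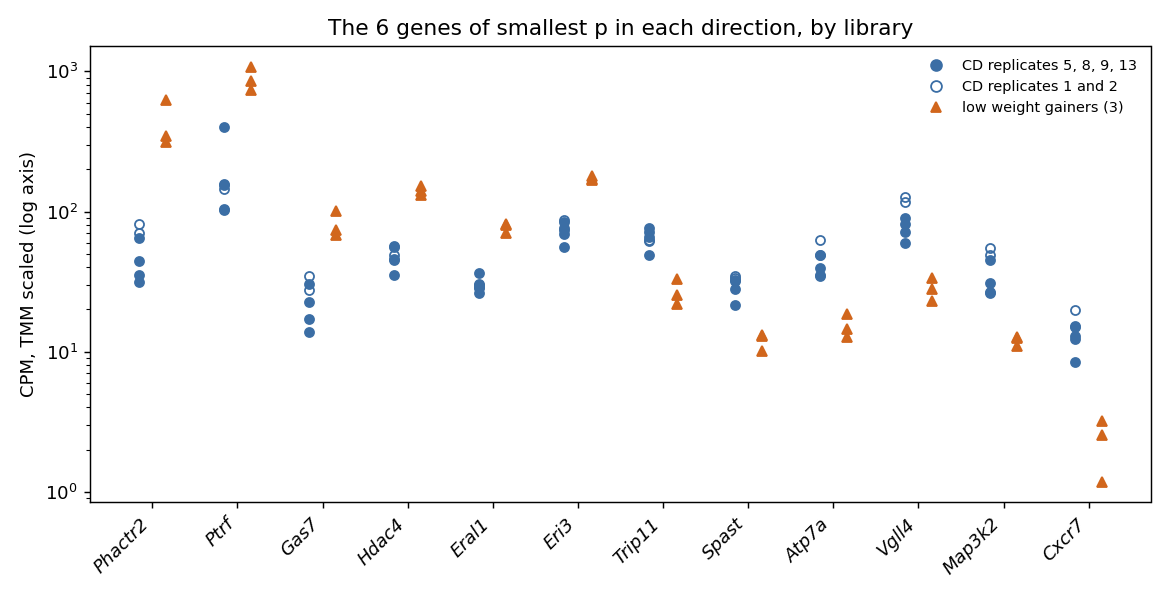
Level of the 6 genes of smallest p in each direction, in CPM scaled by TMM on a log axis, with 1 point for each library (circles, 16-week CD, open for CD 1 and CD 2; triangles, low weight gainers). No triangle shares the range of the circles of its gene, and the Phactr2 triangles sit between 316 and 624 CPM against 31.3 to 81.2 CPM in CD.

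The 6 leading genes that were lower in the low weight gainers act in signaling, the Golgi apparatus, copper transport and the cytoskeleton. Cxcr7 (now Ackr3), a scavenging receptor for the chemokine CXCL12, had 3.23, 1.18 and 2.54 CPM against 8.41, 13.9 and 19.8 CPM as the lowest, median and highest in CD. The log2 fold change of -2.55 (SE 0.45, edgeR adjusted p 0.226) was the largest of the 6. Vgll4, a cofactor that competes for TEAD factors of the Hippo pathway, had 23.1, 33.7 and 28.0 CPM against 59.7 to 126 CPM (log2 fold change -1.69, edgeR adjusted p 0.226). Map3k2, a kinase upstream of MAPK pathways, had 12.4, 12.7 and 10.9 CPM against 26.2 to 55.0 CPM (log2 fold change -1.69, edgeR adjusted p 0.228). In both genes CD 1 and CD 2 were the highest libraries, and without them the log2 fold change was -1.4 in each. Atp7a, a copper transporter, had 18.6, 12.7 and 14.5 CPM against 34.6 to 62.2 CPM. Trip11, a golgin of the Golgi apparatus, had 25.5, 21.9 and 32.8 CPM against 49.3 to 75.7 CPM, and Spast, a microtubule-severing ATPase, had 13.1, 13.01 and 10.2 CPM against 21.5 to 34.5 CPM. Their log2 fold changes were -1.55, -1.27 and -1.33, with edgeR adjusted p-values from 0.228 to 0.236. None of these ranges overlapped, and over all alternatives the log2 fold changes of the 12 leading genes kept their sign.

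Genes encoded by the mitochondrial genome made up less of the low weight gainers' libraries. Their summed share of all counts was 0.488%, 0.614% and 0.337% in the low weight gainers and 0.902% to 2.31% in CD, with no overlap, and CD 1 and CD 2 were the highest at 2.00% and 2.31%. Of 13 listed genes 10 were tested and all 10 had negative log2 fold changes, 9 of them at an unadjusted p under 0.05 (all genes: 7.08%) and none past the edgeR adjusted p. DESeq2 called 4 of them and limma-voom 2. The median log2 fold change was -1.50, against -0.08 over all genes. It was -1.1 without CD 1 and CD 2, over 8 genes tested, with 7 lower at an unadjusted p under 0.05 and the sparse mt-Atp6 at 0.36. In bulk samples, fewer cells of a type and less RNA per cell cannot be told apart.

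Among these genes, mt-Cytb of complex III was the most heavily counted in the low weight gainers. It had 2764, 3936 and 2019 CPM against 3529, 5731 and 10390 CPM, and only low weight gainer 22 reached into the CD range (log2 fold change -1.12). mt-Co1, a core subunit of complex IV, had 1100, 1282 and 538 CPM against 1399, 2346 and 6001 CPM, with no overlap (log2 fold change -1.70, and -1.01 without CD 1 and CD 2). mt-Nd1 of complex I had 565, 928 and 301 CPM against 763, 1953 and 3942 CPM (log2 fold change -1.90, edgeR adjusted p 0.311). Its groups overlapped in low weight gainer 22. The other complex I genes mt-Nd4, mt-Nd5, mt-Nd2 and mt-Nd6 had log2 fold changes of -1.0, -1.91, -1.21 and -1.19. mt-Nd4 and mt-Nd5 did not overlap between groups. mt-Nd5 was at 1554 and 1655 CPM in CD 1 and CD 2, against 323 to 527.5 CPM in the other CD libraries, and its log2 fold change without them was -0.91. Low weight gainer 23 was the lowest of the 3 in each of these 7 genes. mt-Co2 and mt-Atp6 were sparse, at 0.254 to 1.77 CPM and 0.323 to 22.2 CPM in the low weight gainers. mt-Atp8 had no read in the low weight gainers, which allows up to 0.711 CPM on average, and 5.35 CPM on average in CD. CD 9 had no read either and CD 13 had 2, so the groups overlapped. By these means, and for counting error in the low weight gainers only, mt-Atp8 was at least 7.52-fold lower. With mt-Atp8 set to that bound the median of the list stayed at -1.50. Its entry overlaps that of mt-Atp6, and mt-Nd6 overlaps mt-Nd5, so reads of these neighbours cannot be told apart. Apart from mt-Nd1 and mt-Atp8, the mitochondrial genes were named after their values were seen.

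**Figure D2:**
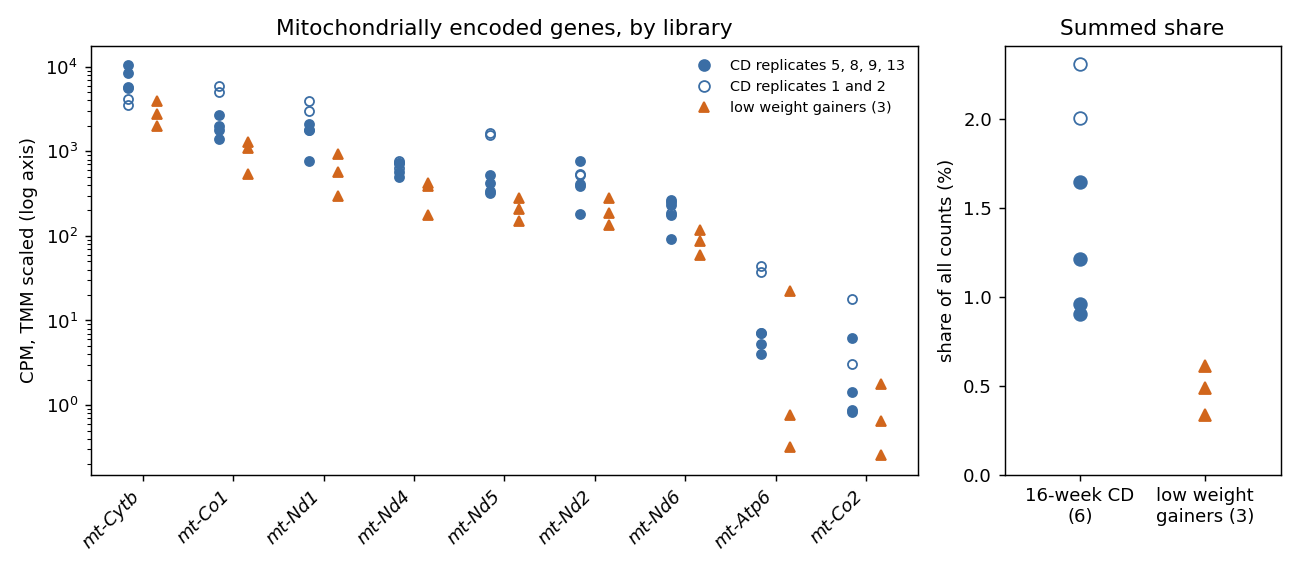
Left, level of 9 mitochondrially encoded genes in CPM on a log axis, by library (circles, CD, open for CD 1 and CD 2; triangles, low weight gainers). Right, summed share of all counts in percent for every mitochondrially encoded gene counted, not only these 9. It lies between 0.337% and 0.614% in the low weight gainers and between 0.902% and 2.31% in CD.

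The nuclear partners of these genes had a median near that of all genes with all libraries. None of 78 nuclear genes of oxidative phosphorylation reached an unadjusted p under 0.05, and their median log2 fold change was -0.10. The members with the smallest p were Uqcrh of complex III (log2 fold change -0.67) and Ndufs4 of complex I (-0.63). Without CD 1 and CD 2 the median moved to -0.39 with 16 of 78 lower at an unadjusted p under 0.05. Mitochondrial ribosomal proteins had a median of -0.0018 over 76 genes and -0.34 without CD 1 and CD 2. Their count lower at an unadjusted p under 0.05 went from 0 to 11. Mrps30 (1.13) and Mrps27 (0.65, and 0.39 without CD 1 and CD 2) had the smallest p in that list. Cytosolic ribosomal proteins had negative log2 fold changes in 73 of 80 genes, with a median log2 fold change of -0.38 and 6 lower at an unadjusted p under 0.05, a share near the 7.08% of all genes. The median was -0.40 without CD 1 and CD 2, with 18 of 80 lower. Rps27a had a log2 fold change of -1.04 and Rps20 of -0.86. No member of these lists was called by edgeR, DESeq2 or limma-voom.

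No gene of the ovulatory lists was called by edgeR, and the medians of these lists were negative. At an unadjusted p under 0.05, 7.08% of all genes were lower, and 4.07% of all genes were lower without overlap. The latter held for 1 of 8 genes of the cumulus expansion list, 1 of 16 of the EGF list and 2 of 30 of the LH response list. The cumulus expansion list had 8 of 15 genes tested, 6 of them negative and 5 lower at an unadjusted p under 0.05, with a median log2 fold change of -0.88. Ptgs2 is the inducible cyclooxygenase that makes the prostaglandins of ovulation. It had 31.0, 49.7 and 36.1 CPM in the low weight gainers, below the lowest, median and highest of CD at 65.4, 150 and 355 CPM. Its log2 fold change was -2.26 (SE 0.55, edgeR adjusted p 0.257) and -1.58 without CD 1 and CD 2. Both DESeq2 and limma-voom called it. Ptx3, a pentraxin that stabilises the matrix, had 24.8, 25.1 and 54.7 CPM against 42.4 to 98.1 CPM, which overlap in low weight gainer 23 (log2 fold change -0.99). The matrix protein Tnfaip6 overlapped fully, with 639, 763 and 587 CPM against 198.5 to 2535 CPM in CD. Without CD 1 and CD 2 the median of the list was -0.56 over 7 genes, with 2 lower at an unadjusted p under 0.05.

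In the wider LH response list, 4 of 30 genes were lower at an unadjusted p under 0.05 and none higher, with a median of -0.28. Without CD 1 and CD 2, 6 were lower and 2 higher with the same median. Rgs2, a regulator of G protein signaling, had 157, 165 and 67.1 CPM against 294, 392 and 1174 CPM, with no overlap and CD 9 far above the other CD libraries. Its log2 fold change was -2.01 (edgeR adjusted p 0.257) and -2.27 without CD 1 and CD 2. Plau, the urokinase that takes part in matrix breakdown at ovulation, had a log2 fold change of -1.38, and -0.85 without CD 1 and CD 2. The list of EGF-like ligands, their receptors and MAPK feedback held 6 of 16 genes lower and 1 higher at an unadjusted p under 0.05, with a median of -0.71. Spred1, an inhibitor of the Ras-MAPK pathway, was at -1.0, and Adam17, the protease that frees EGF-like ligands, at 0.77. This median was -0.32 without CD 1 and CD 2, with 2 lower and 1 higher. Among immediate early genes 7 of 29 were lower and 1 higher at an unadjusted p under 0.05, and 6 were lower without overlap between groups, which is 6 of 29 beside 4.07% of all genes. Egr1 had 34.5, 22.2 and 21.4 CPM against 38.5, 77.2 and 123 CPM, and Zfp36, which speeds the decay of short-lived mRNAs, had 3.55, 5.91 and 3.81 CPM against 8.34, 16.1 and 35.5 CPM. Their log2 fold changes were -1.55 and -2.16 (edgeR adjusted p 0.257 for both), and -1.4 and -1.53 without CD 1 and CD 2. The immediate early list without CD 1 and CD 2 had 5 lower and 2 higher at an unadjusted p under 0.05 and a median of -0.11.

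The promoter windows of Ptgs2 and Rgs2 are shown because both genes are known targets of cAMP and gonadotropin signaling and both were lower without overlap. Capitals mark TGACG or its reverse complement CGTCA. The Ptgs2 window lies at chr1:150099781-150100080 (plus strand) with 1 match, 13 bases after the start, and that of Rgs2 at chr1:144004100-144004399 (minus strand) with 2 matches, 185 and 67 bases before the start (GRCm38.p6, RefSeq). The start is that of RefSeq, and the counted entry of Ptgs2 begins at chr1:150100124, beyond its window. Neither window holds the whole palindrome TGACGTCA, which stands in 1.79% of all windows.
Ptgs2: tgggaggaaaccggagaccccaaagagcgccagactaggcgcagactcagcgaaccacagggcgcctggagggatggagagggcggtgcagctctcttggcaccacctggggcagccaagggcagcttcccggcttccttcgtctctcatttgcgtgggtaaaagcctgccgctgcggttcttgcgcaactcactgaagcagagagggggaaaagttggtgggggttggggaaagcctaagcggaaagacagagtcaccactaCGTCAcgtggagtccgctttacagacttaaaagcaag
Rgs2: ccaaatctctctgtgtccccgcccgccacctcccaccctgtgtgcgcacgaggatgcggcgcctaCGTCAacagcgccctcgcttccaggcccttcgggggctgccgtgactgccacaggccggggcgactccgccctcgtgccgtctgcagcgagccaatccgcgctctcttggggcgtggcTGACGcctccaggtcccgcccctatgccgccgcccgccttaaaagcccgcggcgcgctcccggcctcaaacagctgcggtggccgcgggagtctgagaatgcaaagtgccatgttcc

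Granulosa identity and FSH response genes were lower at an unadjusted p under 0.05 in 6 of 26 (all genes: 7.08%), with none higher and a median of -0.30. Grem1, a BMP antagonist that the oocyte induces in CCs, had 67.0, 66.8 and 33.8 CPM against 95.9, 156 and 186 CPM, with no overlap. The log2 fold change was -1.43 (SE 0.32, edgeR adjusted p 0.257) and -1.35 without CD 1 and CD 2. Esr2, the estrogen receptor of granulosa cells, was at -1.61 and at -0.81 without CD 1 and CD 2, the libraries where it was highest. The granulosa transcription factor Foxl2 was at -1.81 (edgeR adjusted p 0.362), and at -1.3 without CD 1 and CD 2. It had only 20, 2 and 8 reads in the low weight gainers, and its groups overlapped. The receptors, SMADs and targets of oocyte signals had 5 of 21 lower and none higher, with a median of -0.18 and log2 fold changes of -1.09 for Id3, a target of BMP signaling, and -1.82 for the BMP receptor Bmpr2, which was at -1.0 without CD 1 and CD 2. Steroid synthesis genes had a median of -0.039 with 3 of 23 lower, among them Hsd17b1 (-0.88), which makes estradiol, and Stard4 (-0.66), a carrier of cholesterol. In the list of basement membrane and extracellular matrix 5 of 29 were lower and 1 higher, with a median of -0.53 that became -0.09 without CD 1 and CD 2, then with 3 lower and 5 higher. Thbs1, a thrombospondin that binds matrix and TGF-beta, had 74.1, 97.3 and 98.7 CPM against 111, 434 and 1036 CPM. Fn1, fibronectin, had 37.4, 53.8 and 31.5 CPM against 71.0, 95.7 and 337 CPM. Neither gene overlapped between groups, and their log2 fold changes of -2.52 and -2.04 became -1.76 and -1.04 without CD 1 and CD 2.

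Fatty acid synthesis and desaturation was the pathway list with the largest share of members higher at an unadjusted p under 0.05. Of 20 genes tested 5 were higher and 1 lower at an unadjusted p under 0.05 (all genes: 4.1% and 7.08%). Without overlap, 6 of the 20 genes were higher, beside 3.39% of all genes. DESeq2 and limma-voom each called 2 of them. The median log2 fold change was 0.26 (0.044 to 0.54 over the alternatives), and without CD 1 and CD 2 it was 0.54 with 8 higher and 1 lower. Elovl5, which elongates polyunsaturated fatty acids, had 352, 360 and 194 CPM in the low weight gainers and 106, 137 and 188 CPM as the lowest, median and highest in CD. Low weight gainer 23 was close to the highest CD library. The log2 fold change of Elovl5 was 1.07 (SE 0.29, edgeR adjusted p 0.257). Tecr, the reductase that ends each elongation cycle, had 313, 288 and 363 CPM against 120, 154 and 227 CPM (log2 fold change 0.99, edgeR adjusted p 0.275). The promoter window of Elovl5 (chr9:77917115-77917414, plus strand) is shown because it holds the whole palindrome, 3 bases after the start, in capitals. How many other named genes hold it was not counted, and a link to the level of Elovl5 was not tested.
Elovl5: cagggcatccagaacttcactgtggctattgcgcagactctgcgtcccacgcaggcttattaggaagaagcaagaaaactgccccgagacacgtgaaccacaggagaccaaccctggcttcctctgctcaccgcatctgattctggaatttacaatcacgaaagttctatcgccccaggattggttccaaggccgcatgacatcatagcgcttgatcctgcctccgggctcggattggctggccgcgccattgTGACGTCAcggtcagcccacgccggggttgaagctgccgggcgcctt

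Cholesterol genes went both ways. Hmgcs1, the enzyme of the mevalonate pathway ahead of HMG-CoA reductase, had 693, 831 and 537 CPM against 221, 262 and 408 CPM, without overlap. The log2 fold change was 1.27 (SE 0.30, edgeR adjusted p 0.257) and 1.15 without CD 1 and CD 2. Abca1, which exports cholesterol from the cell, had 46.0, 61.2 and 57.7 CPM against 72.4, 150 and 241 CPM, with a log2 fold change of -1.53 (edgeR adjusted p 0.257) and -1.09 without CD 1 and CD 2. In the whole list of 37 genes 3 were higher and 4 lower at an unadjusted p under 0.05 (all genes: 4.1% and 7.08%), with a median of 0.023. When CD 1 and CD 2 were left out, 9 of 36 were higher and 3 lower, with a median of 0.24. Over all genes 932 were then higher and 847 lower. In the list of lipid droplet and triglyceride genes 1 of 26 was higher and 3 lower, with a median of 0.22. When CD 1 and CD 2 were left out, 6 were higher and 3 lower, with a median of 0.35. Lpl, the lipase that frees fatty acids from lipoproteins, had 43.6, 49.4 and 45.8 CPM against 83.3, 94.8 and 116 CPM. These were tight groups without overlap, with a log2 fold change of -1.06 (SE 0.23, edgeR adjusted p 0.236) and -1.03 without CD 1 and CD 2. Lpin2, a phosphatidate phosphatase, was at -1.03, and at -0.73 without CD 1 and CD 2. In the list of fatty acid uptake and beta-oxidation the median was 0.037 with 1 of 42 higher and none lower, and 0.04 with 5 of 41 higher without CD 1 and CD 2. Acsl1, which activates long-chain fatty acids, was at 0.76, and Cpt1a, the gate of mitochondrial entry, at -0.76, and at -0.33 without CD 1 and CD 2. Among PPAR and adiponectin receptor genes 2 of 11 were higher and 2 lower, with 1.03 for the adiponectin receptor Adipor2 and -1.07 for the corepressor Nrip1. Their median of -0.32 became 0.29 without CD 1 and CD 2.

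**Figure D3:**
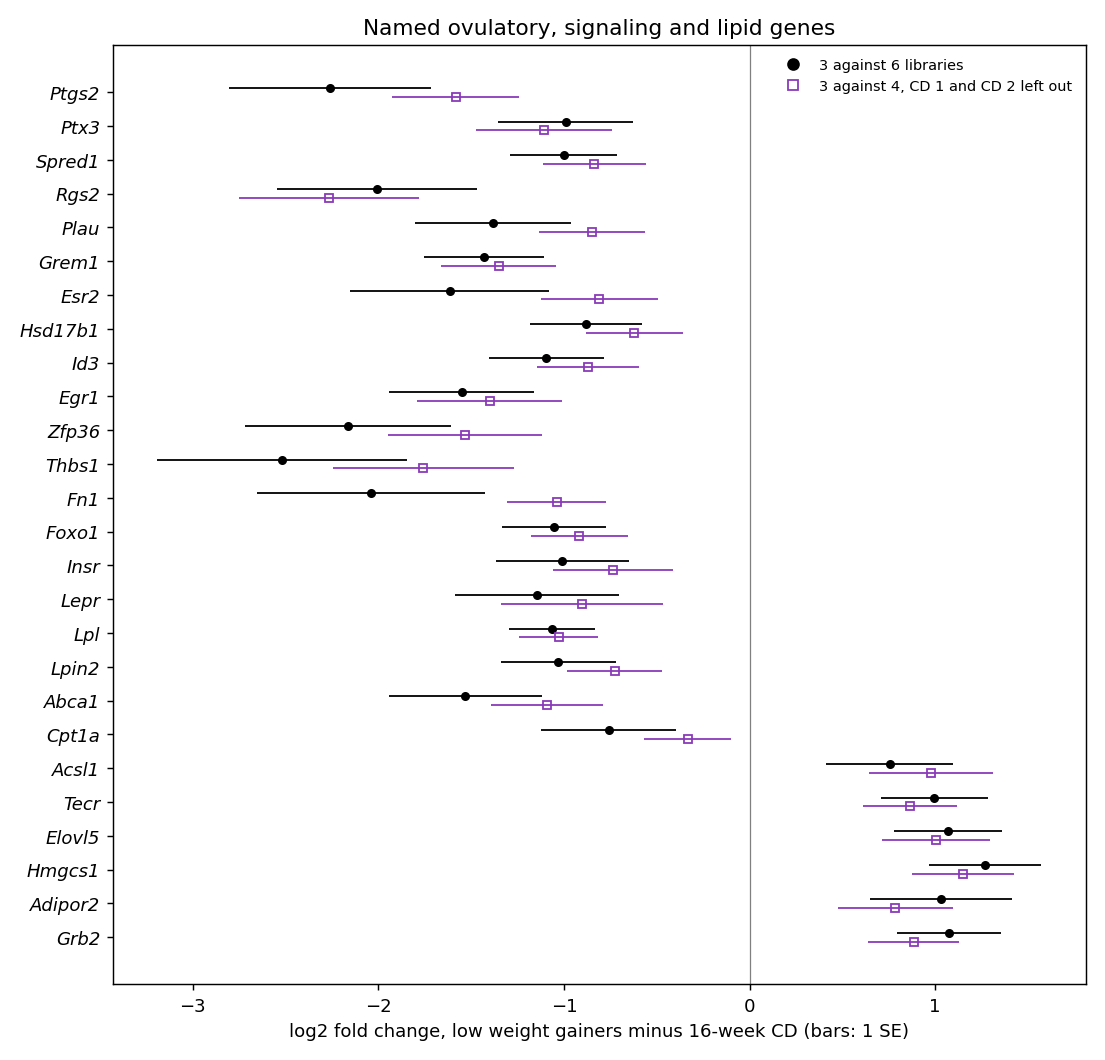
Log2 fold change of the low weight gainers minus 16-week CD for 26 named genes, with bars of 1 SE, with all 9 libraries (dots) and without CD 1 and CD 2 (squares). Each of these genes has the same sign in both, with Ptgs2 at -2.26 and -1.58 and Hmgcs1 at 1.27 and 1.15. The genes were picked by hand, and named genes that turned sign, such as Stat5a and Casp1, are not among them.

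The leptin and inflammasome lists, which hold genes the study names, held no gene called by edgeR. Of 27 genes of the leptin receptor, JAK-STAT and SOCS list 1 was higher and 1 lower at an unadjusted p under 0.05 (all genes: 4.1% and 7.08%). The median was -0.28, and 0.038 without CD 1 and CD 2, then with 4 higher and 1 lower. Grb2, an adaptor of receptor kinases, was at 1.07 (edgeR adjusted p 0.257) and was called by DESeq2 and limma-voom. Lepr, the leptin receptor, had 10.3, 10.6 and 15.0 CPM against 7.64, 29.4 and 34.7 CPM, with CD 5 alone below the low weight gainers (log2 fold change -1.15, edgeR adjusted p 0.377). Stat5a was at 0.12 and Socs3 at 0.47, and without CD 1 and CD 2 at -0.17 and 1.35. Of 16 genes tested in the NLRP3 inflammasome list none reached an unadjusted p under 0.05, and none was called by DESeq2 or limma-voom. When CD 1 and CD 2 were left out, 1 of 15 was higher and 2 lower at that threshold. The median log2 fold change of this list was 0.055, and Nek7 (0.41) and Nfkb1 (-0.64) had the smallest p. Casp1, Il18 and the adaptor Pycard were at 0.33, -0.45 and 0.28 (edgeR adjusted p 0.773 to 0.933), and at -0.29, -0.78 and 0.061 without CD 1 and CD 2. The entries of Il18 and Pycard cover only 24.3% and 42.4% of the gene span in GENCODE M21. Nlrp3 itself had no read in the low weight gainers and 1 read in CD, which for the low weight gainers allows up to 0.484 to 0.887 CPM in a library. Il1b had 28 reads in the low weight gainers, of which 21 in low weight gainer 21 and none in 22, and 18 reads in CD. The difference of its mean log2(RPM + 1) was 0.52, where RPM is the same measure without TMM scaling (two-sided exact permutation test, p = 0.429; the smallest p possible is 0.0238).

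Insulin and growth factor genes went both ways. In the insulin and IGF list 1 of 17 was higher and 3 lower at an unadjusted p under 0.05 (all genes: 4.1% and 7.08%), with a median of 0.041. Without CD 1 and CD 2 the list had 4 higher and 1 lower of 16. The balance over all genes turned as well, from 476 higher and 823 lower to 932 higher and 847 lower. Whether these lists moved more than all genes did was not tested. The insulin receptor Insr was at -1.01 and Pappa, a protease that frees IGF from its binding proteins, at -2.03, which was -0.99 without CD 1 and CD 2. Pappa had only 21, 10 and 3 reads in the low weight gainers. The list of PI3K, mTOR and FOXO had 5 of 37 lower and none higher and a median of -0.25, and 5 higher with 1 lower of 34 without CD 1 and CD 2. Foxo1, a transcription factor that insulin holds out of the nucleus, was at -1.05 and at -0.92 without those libraries (edgeR adjusted p 0.257 and 0.158). Pdpk1, the kinase that activates AKT, was at -0.86, and at -0.58 without CD 1 and CD 2. Glucose uptake and glycolysis had 2 of 29 higher and 1 lower, with the glucose transporter Slc2a1 at 0.85 and Pdk4, which restrains pyruvate dehydrogenase, at -1.24 (-0.68 without CD 1 and CD 2). Its median was 0.052, and 0.45 without CD 1 and CD 2, then with 5 higher and none lower. In the TCA cycle list, with the malic enzymes Me1 (-0.95, and -0.47 without CD 1 and CD 2) and Me2 (0.76), the median was 0.055. For the pentose phosphate and hexosamine pathways it was -0.20, with H6pd at -1.57 and Gfpt1, the entry enzyme of the hexosamine pathway, at -0.75. H6pd had 55.0 and 37.4 CPM in CD 1 and CD 2 against 7.15 to 9.20 CPM in the other CD libraries, and without those libraries it was at -0.22 and the list at 0.02.

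The remaining lists had medians between -0.27 and 0.26 and no edgeR call. Over all genes 4.1% were higher and 7.08% lower at an unadjusted p under 0.05. These are the shares to set beside the counts below that use all libraries. The glutathione and thioredoxin list had 2 of 33 higher and 2 lower at an unadjusted p under 0.05 (Mgst2 1.04, Ggct -1.15). The list of superoxide dismutases, catalase and peroxiredoxins had 1 of 17 lower (Nfe2l2, the oxidative stress factor, -0.81) and Prdx6 at 0.48. The unfolded protein response had 2 of 32 higher and 1 lower (Syvn1 -1.32, Dnajb11 0.79). Heat shock chaperones had none of 22 (Hspa8 -0.81, Dnaja2 -0.53), and the proteasome none of 47 (Psme4 -0.75, Psmd2 0.60). Cell cycle genes had 1 of 37 higher and 1 lower, with the replication helicase subunit Mcm2 at 1.08 and the topoisomerase Top2a at -1.0. Among BCL2 family and caspase genes 2 of 25 were higher and 1 lower, with the apoptosis inhibitor Xiap at -1.16. Autophagy and lysosome genes had 1 of 39 in each direction, with the cathepsins Ctsl at -0.92 and Ctsb at 0.84. The hypoxia list, in which Ndrg1 was at -0.86, had 1 of 23 in each direction. Amino acid transporters had 1 of 25 lower, Slc7a1 at -1.1, and Slc7a8 was at -1.65 and, without CD 1 and CD 2, at -0.06. The Wnt list had 2 of 27 lower (Apc -1.33, Fzd1 -1.44) and the Notch list 2 of 13 higher (Maml2 1.18, Ncstn 0.79). The interferon list had 1 of 26 in each direction (Adar -1.38, Ifitm1 1.4), and MHC genes 1 of 17 higher, H2-T24 at 1.06, with the peptide loading factor Tapbp at 0.81. PRC2 and chromatin regulators had 2 of 28 in each direction, where the acetyltransferase Crebbp was at -1.06 beside Hdac4. The clock list had 2 of 19 in each direction (Clock -0.80, Bhlhe40 0.68). RNA-binding and mRNA decay regulators had 4 of 24 lower, with the decapping enzyme Dcp2 at -1.28 beside Zfp36. Their median of -0.27 became -0.0019 without CD 1 and CD 2, then with 2 of 23 lower. The tRNA synthetases had 1 of 36 in each direction (Kars 1.1, Wars2 -0.96). Several of these values moved when CD 1 and CD 2 were left out, where 932 of all genes were higher and 847 lower. The proteasome then had 8 of 47 lower with a median of -0.34, and the chaperones 3 of 20 lower with a median of -0.11. In that setting the amino acid transporters had 3 of 23 higher and none lower, the cell cycle list 4 of 36 higher and 1 lower, the PRC2 list 2 of 27 higher and 4 lower, and the Notch list a median of 0.41. Among the named members, Fzd1 was then at -0.63, Apc at -0.89, Adar at -0.71, Slc7a1 at -0.48, Clock at -0.41, Syvn1 at -0.84, Top2a at -0.65 and Dcp2 at -0.83. Shares of 2 in 27 for the Wnt list and of 2 in 28 for the PRC2 list are near the 7.08% of all genes that were lower.

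**Figure D4:**
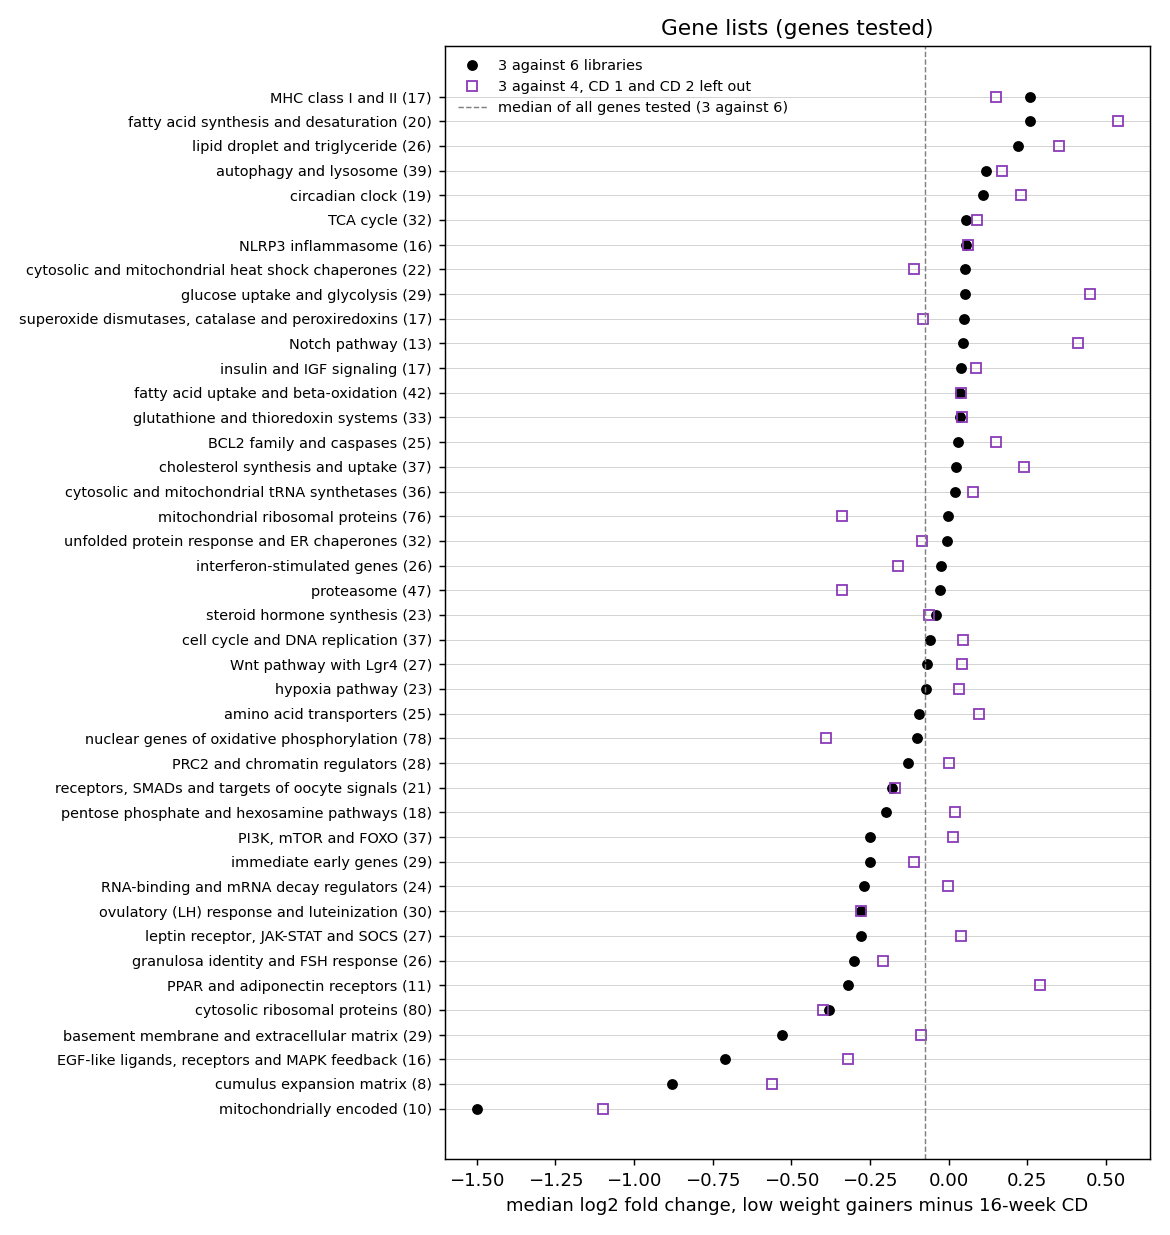
Median log2 fold change of the low weight gainers minus 16-week CD for 42 gene lists, with the number of genes tested in brackets, with all 9 libraries (dots) and without CD 1 and CD 2 (squares). The mitochondrially encoded genes lie lowest at -1.50 and -1.1, and the dashed line marks the median of all genes tested, -0.08.

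RNA of other cell types was measured by marker lists. Macrophage and neutrophil markers had positive log2 fold changes in 17 of 19 genes tested, with a median log2 fold change of 0.76. At an unadjusted p under 0.05, 3 of these markers were higher and 1 lower (all genes: 4.1% and 7.08%). Without overlap between groups, 3 of the 19 were higher and 1 lower, beside 3.39% and 4.07% of all genes. Their summed level was 444.8 to 522.7 CPM in the low weight gainers, within the 165.6 to 653.6 CPM of CD, where CD 1 and CD 2 were the lowest. Without these libraries the median was 0.45. C3ar1, the receptor of complement C3a, had 7.26, 15.1 and 9.16 CPM against 1.74, 3.67 and 5.23 CPM (log2 fold change 1.51), while the leukocyte antigen Cd52 had 31.6, 34.3 and 27.0 CPM against 40.7, 73.9 and 108 CPM (log2 fold change -1.30). Neither overlapped, and their edgeR adjusted p-values were 0.275 and 0.257. Ptprc also lay above CD without overlap, at 34.4, 69.8 and 29.25 CPM against at most 22.1 CPM. So did Csf3r, at 5.97, 2.07 and 9.66 CPM against at most 1.19 CPM, from 82 reads in the low weight gainers and 15 in CD. The neutrophil gene S100a8 had 42.0 and 59.8 CPM in low weight gainers 21 and 23, 1.77 CPM in 22 and up to 28.6 CPM in CD. Low weight gainer 22 held most of the haemoglobin reads of its group (Hba-a1 47.3 CPM, Hba-a2 41.1 CPM, against at most 5.45 CPM of either in CD) and of the oviduct secretory gene Ovgp1 (292 CPM, against 9.84 and 17.8 CPM in the other low weight gainers and up to 89.6 CPM in CD). Lymphocyte markers were sparse, with a summed level of 0.254 to 29.3 CPM in the low weight gainers and 0.271 to 21.4 CPM in CD, with Cd79b at 0.33 and Ms4a1 at 0.20 in log2 fold change, and at -0.31 and -0.45 without CD 1 and CD 2. Endothelial markers summed to 14.5 to 19.8 CPM against 12.4 to 28.3 CPM (Pecam1 0.54, Cdh5 -0.44), and oviduct epithelium markers included Krt8 at -0.40. Of the oocyte markers only Kit was tested (-1.1, and -0.59 without CD 1 and CD 2). The only theca and stroma gene tested, Ptch1, was at 36.4 and 30.2 CPM in CD 1 and CD 2 and at 0.254 to 3.98 CPM in the other 7 libraries. The granulosa markers had a median of -0.37. The part of these other cell types in the results above was not tested.

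More genes were called against mice on the same HFD than against CD. The counts come from separate fits with 7 and 6 reference libraries, and the difference between them was not tested. Against the 7 libraries of 16-week HFD, edgeR called 1212 genes higher (10.8%) and 1118 lower (9.93%) of 11258 tested. Of the genes changed, low weight gainers against 16-week HFD, the 2330 in all became 1145, 1456 and 596 when low weight gainer 21, 22 or 23 was left out. Both comparisons share the 3 low weight gainers' libraries, so their values are only set side by side. Phactr2 was higher than in HFD by 2.11 (SE 0.27, edgeR adjusted p 0.000447), and Ptrf, Hdac4 (3′ entry), Gas7, Eri3 and Eral1 by 1.99, 1.58, 1.34, 1.05 and 0.97. Atp7a, Map3k2, Trip11, Spast and Vgll4 were lower than in HFD, with log2 fold changes of -1.54, -1.49, -1.38, -1.15 and -1.02, and all 11 genes passed the test against HFD. Cxcr7 was the exception, at 0.30 (SE 0.57, edgeR adjusted p 0.735) against HFD beside -2.55 against CD. The mitochondrial genes mt-Nd1 (-1.85) and mt-Cytb (-1.56) passed against HFD (edgeR adjusted p 0.00312 and 0.00676), while mt-Co1 did not (-0.75, edgeR adjusted p 0.0944). Grem1 (-1.57), Rgs2 (-1.64) and Ptgs2 (-0.89) also passed as lower than in HFD, and Elovl5 (0.91), Tecr (1.32) and Hmgcs1 (0.74) as higher. Lpl (-1.46) and Abca1 (-1.29) passed as lower, with an edgeR adjusted p of 0.0012 for each. Fn1 (-0.23) and Cd52 (-0.69) did not pass against HFD, and nor did C3ar1 (0.04).

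**Figure D5:**
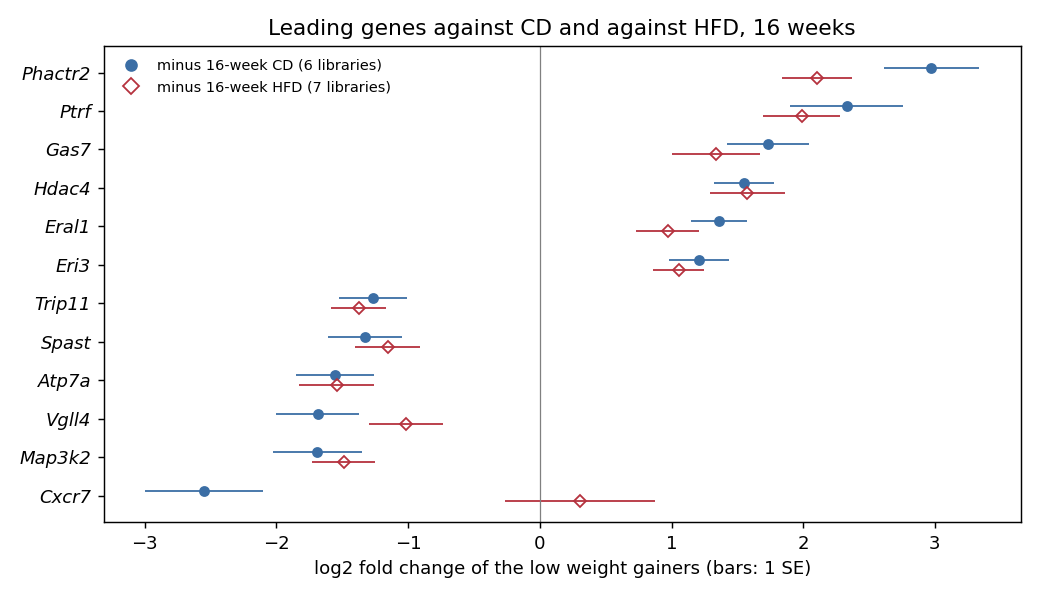
Log2 fold change of the low weight gainers minus 16-week CD (dots) and minus 16-week HFD (diamonds) for the 12 leading genes, with bars of 1 SE. Both comparisons use the same 3 low weight gainer libraries. Cxcr7 alone lies on opposite sides of 0, at -2.55 and 0.30.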

How the data were processed

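Counts of 34 CC libraries were at hand, of which 9 carried this comparison and 7 more, of 16-week HFD, the second reference. The authors captured mRNA by the Smart-seq2 oligo-dT method, made Nextera XT libraries and deposited 1 table of read counts per gene and library, without normalization or molecular identifiers. The submitters' processing notes list Trim Galore 0.4.2, HISAT2 2.0.5 and GRCm38. The counting program, its strand setting and annotation are not given in the sources used here, so overlapping genes cannot be told apart. Of 25965 entries (25899 symbols), 17172 had a count in the 9 libraries and 11620 passed filterByExpr (minimum count 10).

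Groups came from the sample titles. Tests used edgeR 4.0.16 in R 4.3.3 (TMM, robust quasi-likelihood F-test, two-sided, Benjamini-Hochberg adjusted p under 0.05 over all genes tested), with the 2 groups of each comparison alone. DESeq2 1.42.0, limma 3.58.1, other scalings, filters and left-out libraries were alternatives, and leaving out CD 1 and CD 2 together was added after seeing the data. Correlations and principal components used log2 CPM (prior count 2). Of 18 replicate pairs checked none were identical. A count of 0 allows up to 3 counts (95% confidence, counting error only), which is 0.407 to 1.43 CPM by library. Genes below the filter were given by reads and an exact permutation test over 84 assignments.

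The 42 pathway lists, 8 marker lists and the rule for named genes were chosen with earlier results of these data known. The rule took called genes without overlap, the 6 smallest p-values in each direction among genes without systematic names, up to 2 members of smallest p per list where none was called, and 8 genes that the study names. Entries were compared with GENCODE M21, and 81 of 123 named entries had a RefSeq promoter window. Besides those of Hdac4, Il18 and Pycard, the entries of Maml2 and Hspa8 covered only 21.7% and 46.3% of the gene span. 1 gene that the rule named is not reported here. The fits were also run on simulated counts, with less spread between libraries than the data (common dispersion 0.21) and no library set apart. That run checked the code and not how the tests perform on these data.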

Additional observations from a re-analysis of the deposited data

Results flagged for a closer look

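Within the 6 CD libraries, 1 library lay far from the others for 6 of 128 measures checked with Dixon's ratio, and chance alone marks about 1 in 20 such groups. CD 13 had 399 CPM of Ptrf, where the next was 158 CPM. CD 9 had 1174 CPM of Rgs2 beside 551 CPM in the next, and 102.1 CPM of the longer Hdac4 entry beside 33.9 CPM. CD 5 had 289.3 CPM of Mgst2 beside 161 CPM, and CD 2 had 18.16 CPM of mt-Co2 beside 6.25 CPM. The single Nlrp3 read of the group, 0.1355 CPM, was in CD 2. A single read in a group fixes the ratio at its maximum, so the rate of chance does not apply to this flag.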

How the results depend on the processing

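Of the genes changed, low weight gainers against 16-week CD, edgeR called 1 of 11620. The count was 250 with DESeq2, 214 with limma-voom, 15 with the 3 groups of 16 weeks in 1 fit, 7 with all 34 libraries, 3 without CD 1 and CD 2 (chosen after seeing the data), 1299 at an unadjusted p under 0.05, and 0 with library totals only or with at least 10 counts in every library. Without 1 library at a time it was 0 or 1. Of the genes changed, low weight gainers against 16-week HFD, edgeR called 2330, with 596 to 2732 without 1 library at a time, namely 596, 1145 and 1456 without low weight gainers 23, 21 and 22. The cause of these differences was not tested.

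The log2 fold change turned in sign, in no case past the threshold, for 8 genes. Without CD 1 and CD 2 it was -0.29 for Casp1, -0.31 for Cd79b, -0.45 for Ms4a1, -0.17 for Stat5a, -0.058 for Hdac4.dup1 (the longer Hdac4 entry) and 0.36 for mt-Atp6. With limma-voom it was 0.0054 for Cdh5 and -0.41 for Ms4a1. Without 1 library at a time it ran from -0.073 to 0.76 for Casp1, -1.16 to 0.90 for Cd79b, -1.72 to 0.80 for Ms4a1, -1.26 to 2.25 for Ovgp1 and -0.076 to 0.88 for Stat5a. No paired analysis was possible because the groups share no replicate numbers. Depth limits genes such as Nlrp3 and Il1b, which had few reads.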
